A study of Homo sapiens with 18 samples.

Results

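Matricellular proteins and small proteoglycans of the extracellular matrix were followed through 10 genes, which were taken by gene symbol from the deposited count table and are 10 of its 60668 genes. DCN (decorin), LUM (lumican), BGN (biglycan) and OGN (osteoglycin) encode 4 small leucine-rich proteoglycans. FN1 (fibronectin), SPARC (osteonectin), THBS1 and THBS2 (thrombospondins), TNC (tenascin-C) and POSTN (periostin) encode 6 matrix glycoproteins. Poly(A) RNA was measured in wild type IMR90 cells, primary human fibroblasts from lung, in 6 groups of 3 libraries. Cells were either proliferating or had been irradiated (IR), which makes them senescent. Each state was given the solvent DMSO or 1 of 2 MDM2 inhibitors (MDM2i), RG7388 or HDM201, which keep the ligase MDM2 from marking p53 for destruction. The groups are called Prolif_DMSO, Prolif_RG7388, Prolif_HDM201, IR_DMSO, IR_RG7388 and IR_HDM201. Irradiated cells received inhibitor from day 4 to day 11 after irradiation, which is 7 days. The labels do not give the length of treatment of proliferating cells. RG7388 and HDM201 were used at different doses, so their values are set side by side and were not tested against each other. All groups derive from 1 cell strain. The labels do not say what a replicate is, and the study's methods count a single culture well as a biological replicate, so the p-values rest on the spread between wells of 1 strain.

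Small leucine-rich proteoglycans carry a protein core that binds collagen fibrils and, in decorin and biglycan, chondroitin or dermatan sulfate chains. Matricellular proteins are secreted into the matrix but act on cells more than they bear load, binding integrins, growth factors and proteases. Fibroblasts are a main source of both kinds of protein, and tenascin-C and periostin are known for their induction in wounds and fibrosis.

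Library totals ranged from 21609198 to 66647700 counts, and members took between 1.18% and 3.17% of them. Levels below are CPM, counts relative to library size after scaling with factors of the trimmed mean of M values (TMM), with the SD over 3 libraries where a mean is given. Differences between groups are on the log2 scale and carry a standard error (SE), and a gene was called at an adjusted p under 0.05 in edgeR over the 18151 genes tested. The fibroblast label was checked against 6 fibroblast markers, all of which exceeded 1 CPM in each group, and against 6 leukocyte markers, none of which did. The fibroblast markers themselves moved with irradiation: 5 of the 6 were called lower in DMSO (median -0.91), and their summed level was 39629 to 44764.1 CPM in Prolif_DMSO, 15225.7 to 22651.4 CPM in IR_DMSO, 21763.5 to 23899.5 CPM in IR_RG7388 and 19877.8 to 20266.6 CPM in IR_HDM201. Of 6 epithelial markers 1 exceeded 1 CPM, and of 5 endothelial markers 1 or 2. The summed endothelial level was 83.3 to 90.6 CPM in Prolif_DMSO and 117.2 to 137.9 CPM in IR_DMSO, and 1 endothelial marker was called higher after irradiation in DMSO. All 4 smooth muscle markers (MYH11, DES, ACTG2 and LMOD1) exceeded 1 CPM in each group, and their summed level moved with several members. It was 1475.3 to 1620.1 CPM in Prolif_DMSO, 449.8 to 681.3 CPM in IR_DMSO, 1072.3 to 1171.6 CPM in IR_RG7388 and 936.0 to 1211.7 CPM in IR_HDM201. In proliferating cells it was 1122.0 to 1262.0 CPM with RG7388 and 964.7 to 1326.3 CPM with HDM201, and 2 of the 4 markers were called lower with each inhibitor there, beside the fall of TNC. The part of any of these marker lists in the results was not tested. The libraries IR_DMSO 1 and Prolif_HDM201 3 correlated least with the others of their groups (mean r of 0.979 and 0.977), and calls of members that change with both left out are given beside the results.

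Per kilobase of merged exon, fibronectin and SPARC were the most abundant members in proliferating DMSO cells, at 1121.6 ± 49.3 and 942.2 ± 44.6 CPM per kilobase. TNC followed at 388.8 ± 13.3, THBS1 at 283.6 ± 19.4, BGN at 185.7 ± 4.95 and DCN at 83.7 ± 5.68 CPM per kilobase. POSTN at 73.6 ± 9.91 did not differ from DCN beyond the spread of the libraries. LUM stood at 33.1 ± 2.11 and THBS2 at 9.09 ± 0.402 CPM per kilobase. OGN was last at 0.0469 ± 0.0393. The order depends on the length used, since decorin ranked 6 here but 3 among the deposited FPKM values, and its merged exons span 12941 bp. In IR_DMSO cells SPARC led at 474.3 ± 16.8, ahead of FN1 at 370.0 ± 70.2 CPM per kilobase, and TNC had dropped to 68.2 ± 8.56, within the spread of DCN at 65.5 ± 5.07.

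OGN gave 66 counts over all 18 libraries, between 0 and 24 in each, and did not pass the filter on low counts. It was therefore not tested, and its groups overlapped throughout. The count was 24 in Prolif_DMSO 1 and at most 7 in every other library. OGN lies in a proteoglycan cluster on chromosome 9 with OMD, ASPN and ECM2, where OMD was not tested either. ASPN and ECM2 were tested and not called after irradiation in DMSO, at -2.14 (SE 0.92, adjusted p = 0.0562) and -1.39 (SE 0.72, adjusted p = 0.111), from means of at most 0.293 and 0.423 CPM in any group. DCN and LUM lie in a second such cluster on chromosome 12 with 28990 bp between them, beside KERA and EPYC, neither of which passed the filter.

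**Figure D1:**
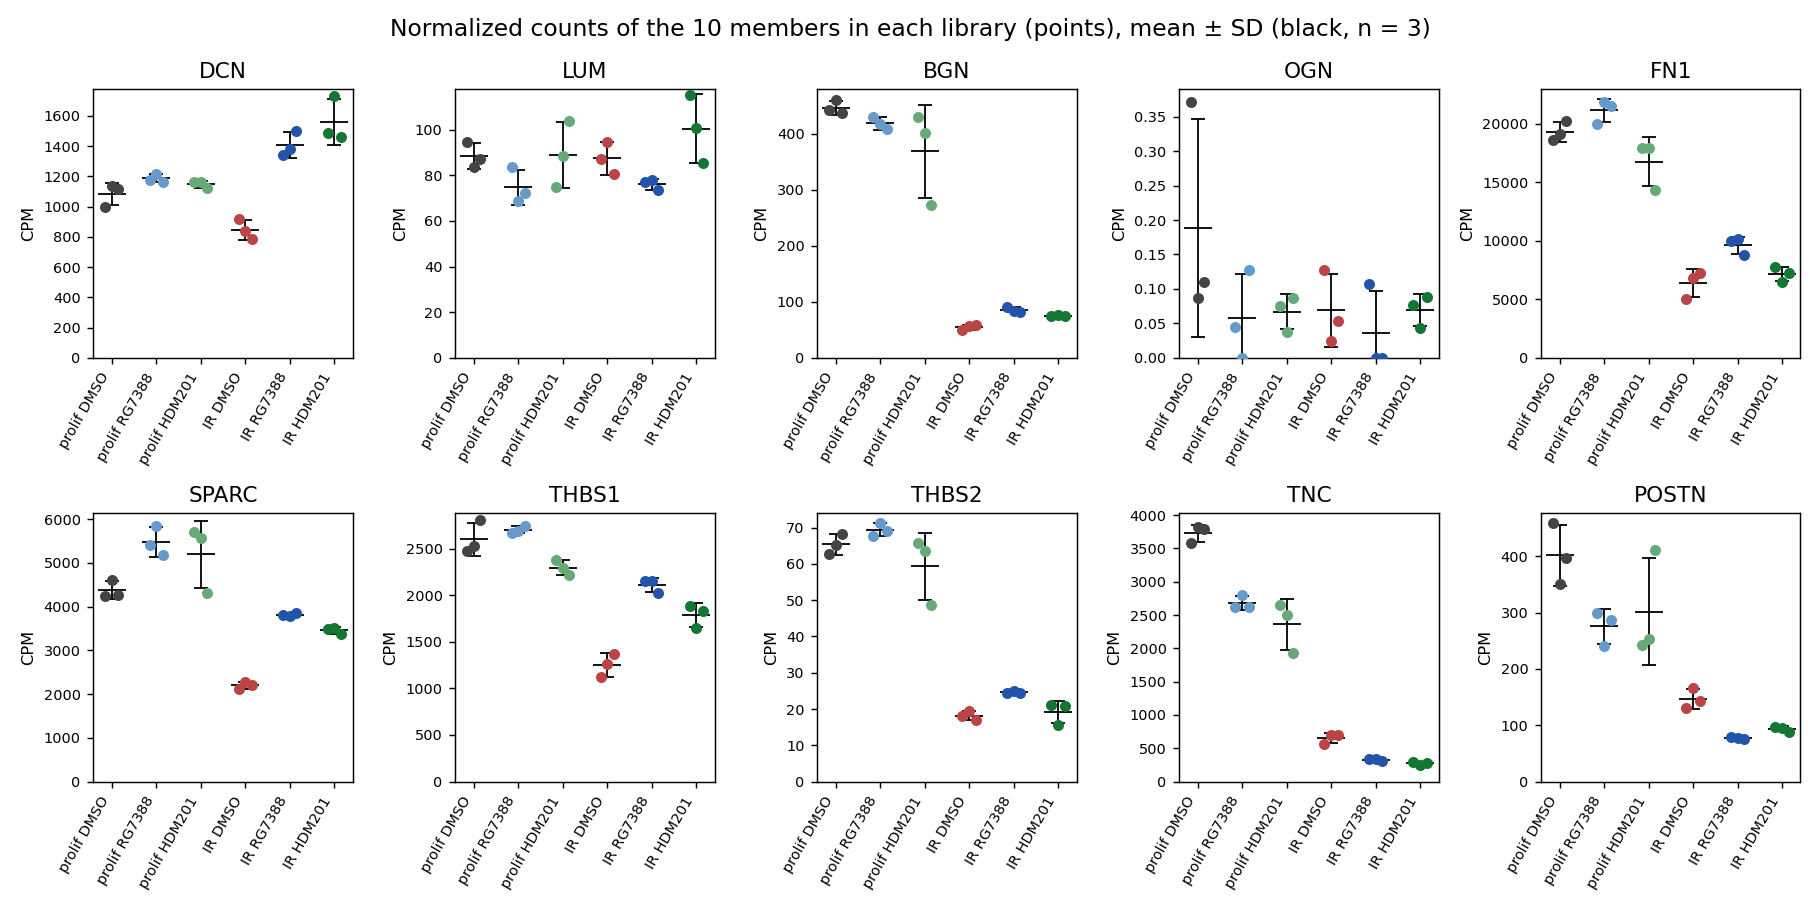
CPM of each member (linear axes starting at 0) in each of the 18 libraries by group, with the group mean ± SD in black (n = 3). BGN, FN1, THBS2, TNC and POSTN drop from proliferating to irradiated cells in every treatment, SPARC and THBS1 lie between both states in irradiated cells given an inhibitor, and OGN stays below 0.4 CPM.

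Promoters are shown for SPARC and THBS1, which were higher with either inhibitor in irradiated cells, and for TNC and POSTN, which were lower. DCN and BGN were also higher with either inhibitor but are not shown. Of the motifs searched, the promoter of BGN matched only the GC box. Each promoter shown is the 250 bases before the RefSeq start (GRCh38.p14), read in the direction of the gene, with every motif match in capitals. They lie at chr5:151686916-151687165 and chr9:115118158-115118407 and chr13:37598769-37599018 on the minus strand and at chr15:39580829-39581078 on the plus strand.
SPARC: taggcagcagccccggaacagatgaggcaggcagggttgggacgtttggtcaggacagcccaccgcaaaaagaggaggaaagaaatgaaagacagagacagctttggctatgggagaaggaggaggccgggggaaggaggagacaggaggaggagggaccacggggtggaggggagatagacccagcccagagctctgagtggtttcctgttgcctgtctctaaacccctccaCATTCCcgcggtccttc
THBS1: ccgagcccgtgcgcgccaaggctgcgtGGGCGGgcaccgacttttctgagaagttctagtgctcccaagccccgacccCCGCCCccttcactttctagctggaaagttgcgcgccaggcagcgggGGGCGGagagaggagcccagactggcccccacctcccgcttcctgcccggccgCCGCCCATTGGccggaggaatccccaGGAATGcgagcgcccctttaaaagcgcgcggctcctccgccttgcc
TNC: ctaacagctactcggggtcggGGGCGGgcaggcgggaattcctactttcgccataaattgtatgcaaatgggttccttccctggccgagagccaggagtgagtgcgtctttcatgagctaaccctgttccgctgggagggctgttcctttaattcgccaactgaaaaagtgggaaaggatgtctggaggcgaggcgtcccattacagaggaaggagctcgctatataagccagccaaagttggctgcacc
POSTN: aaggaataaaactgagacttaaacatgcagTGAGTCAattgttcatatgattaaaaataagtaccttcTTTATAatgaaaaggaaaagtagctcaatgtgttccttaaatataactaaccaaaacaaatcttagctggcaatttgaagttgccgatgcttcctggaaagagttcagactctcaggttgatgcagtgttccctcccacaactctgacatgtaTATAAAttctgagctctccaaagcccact
Motifs were searched on both strands in the same window of 8 members present in the promoter table (DCN and LUM were not matched) and of all 27303 RefSeq promoters. The TEAD site GGAATG, or its reverse complement CATTCC, was found in SPARC, THBS1 and THBS2 and in 11.9% of all promoters. The GC box GGGCGG was found in BGN, FN1, THBS1 and TNC and in 42.3% of all promoters. CCAAT was found in FN1 and THBS1 and in 33.0% of all promoters, and in THBS1 its reverse complement directly follows a GC box without overlap. The TATA box TATAAA was found in OGN, THBS2 and POSTN (11.1% of all promoters) and began 29 bases before the start in both THBS2 and POSTN. The match in OGN and a second match in POSTN were on the opposite strand, 200 and 182 bases before the start. Near matches, such as the letters tatataa in TNC, were not searched. The AP-1 site TGANTCA was found only in POSTN among these 8 members (6.6% of all promoters). The p53 half-site, the NF-kB site and the serum response element were in 5.53%, 5.05% and 1.14% of all promoters and in none of the 8 windows. SPARC and THBS1 windows held 7 and 24 CpG dinucleotides, TNC 12 and POSTN 1, and the GC content of POSTN was lowest of the 4 at 36.4%. These matches describe letters in a window and were not tested as binding sites.

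Irradiation in DMSO was compared first, as a measure of the senescent state without inhibitor. Of the 9 tested members 8 fell and LUM was not called, while 25.3% of all tested genes were called lower and 26.3% higher. The median log2 fold change of the members was -1.46, against 0.05 over all tested genes. Biglycan fell most and tenascin-C next. In bulk RNA, fewer cells that express a gene and less of its RNA per cell cannot be told apart.

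Among the proteoglycans, biglycan, which organizes collagen fibrils, stood at 442.3, 459.8 and 437.1 CPM in Prolif_DMSO. In IR_DMSO it stood at 48.7, 55.9 and 58.1 CPM. It fell by 3.04 on the log2 scale (SE 0.13, adjusted p = 6.5e-15), to 12.1% of the proliferating level, which puts it among the lowest 0.645% of all tested genes. Decorin, which binds collagen and TGF-beta, was at 998.7, 1134.0 and 1116.1 CPM in proliferating and 916.4, 840.8 and 785.7 CPM in irradiated DMSO cells. Its change of -0.35 (SE 0.10, adjusted p = 0.00351) was the smallest of the 8, and it rests on the scaling and the unit. With library totals alone, which moved the median gene of this comparison by 0.289, decorin was at -0.06 (adjusted p = 0.552), and its deposited FPKM values were 643.9 ± 49.3 and 670.4 ± 172.4, without a fall. Lumican, the keratan sulfate proteoglycan of cornea and other collagenous tissue, was at 94.7, 83.7 and 87.1 CPM before and 87.3, 94.8 and 80.4 CPM after irradiation, and the groups overlapped. Its change was -0.02 (SE 0.12, adjusted p = 0.918). Thus of 2 neighboring genes on chromosome 12 and their relative on the X chromosome, only BGN changed more than 2-fold in this comparison.

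Fibronectin, which cells assemble into fibrils that other matrix proteins bind, was the member with the most counts. It measured 18561.9, 19135.4 and 20231.6 CPM in Prolif_DMSO. It measured 4998.1, 6835.9 and 7276.1 CPM in IR_DMSO, with IR_DMSO 1 lowest. The fall was 1.60 on the log2 scale (SE 0.13, adjusted p = 4.03e-10), or 3.03-fold. SPARC, which binds collagen and regulates its deposition, was at 4231.8, 4607.6 and 4270.7 CPM before and 2114.8, 2268.0 and 2216.5 CPM after irradiation, a change of -0.99 (SE 0.10, adjusted p = 2.53e-08). Its irradiated mean was 50.3% of the proliferating one, and the libraries of each group lay close together.

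Both thrombospondins, which bind cell surface receptors and restrain angiogenesis, fell. THBS1 was at 2469.7, 2522.3 and 2800.8 CPM in Prolif_DMSO and 1118.2, 1264.3 and 1367.4 CPM in IR_DMSO, a change of -1.06 (SE 0.10, adjusted p = 3.49e-09). THBS2, far less abundant, was at 62.6, 65.2 and 68.4 CPM and 18.02, 19.4 and 16.9 CPM, a change of -1.85 (SE 0.12, adjusted p = 1.68e-11). The antisense gene THBS2-AS1 overlaps 2249 exonic bases of THBS2, but it held 792 counts against 26820 of THBS2 over all libraries, and strandedness of the counting is not given in the sources used here. Tenascin-C, an anti-adhesive hexameric protein of wounds, went from 3581.6, 3816.5 and 3786.7 CPM to 559.5, 699.4 and 703.9 CPM. That is a fall by 2.51 on the log2 scale (SE 0.12, adjusted p = 6.02e-14), or 5.70-fold. Periostin, which cross-links matrix and binds integrins, went from 458.3, 350.3 and 397.3 CPM to 131.1, 165.7 and 143.1 CPM, a change of -1.46 (SE 0.16, adjusted p = 1.12e-07). Each of the 8 calls held with any 1 library left out.

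The same comparison was made with an inhibitor in both states. With RG7388, 7 members fell and DCN rose, beside 22.8% of all tested genes lower and 21.3% higher. With HDM201, likewise 7 fell and DCN rose, beside 23.8% lower and 22.7% higher. BGN, FN1, SPARC, THBS1, THBS2, TNC and POSTN made up the 7 in both. The estimated difference was smaller for some members and larger for others. THBS1 was at -0.36 (SE 0.10) in RG7388 and in HDM201, against -1.06 in DMSO. TNC was at -3.02 (SE 0.12) and -3.11 (SE 0.13), against -2.51. How far an inhibitor changed the irradiation difference is the same contrast as the state test below. There TNC was not called with RG7388 (-0.51, adjusted p = 0.0581), and its call with HDM201 (-0.60, adjusted p = 0.0215) held in 4 of 12 fits with 1 library left out. For decorin the sign turned, with 0.25 (SE 0.10, adjusted p = 0.0395) in RG7388 and 0.44 (SE 0.10, adjusted p = 0.000546) in HDM201. The call of decorin in RG7388 was lost with any 1 library left out, at adjusted p of 0.0756 to 0.174. Lumican, not called in any of the 3 comparisons, was called higher in HDM201 with IR_DMSO 1 and Prolif_HDM201 3 both left out (0.27, adjusted p = 0.0448), and on log2(FPKM + 1) THBS1 was no longer called in either inhibitor (-0.20, adjusted p = 0.108, and -0.17, adjusted p = 0.183).

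In irradiated cells RG7388 moved the members in both directions relative to DMSO. DCN, BGN, FN1, SPARC, THBS1 and THBS2 rose, and TNC and POSTN fell, that is 6 and 2 of 9 tested, beside 10.9% of all tested genes higher and 11.9% lower. HDM201 raised DCN, BGN, SPARC and THBS1 and lowered TNC and POSTN, that is 4 and 2 of 9, beside 9.96% higher and 11.3% lower. The median change of the members was 0.59 with RG7388 and 0.20 with HDM201, against -0.03 and -0.02 over all tested genes. Both comparisons share the IR_DMSO libraries. Where libraries of 2 groups separate fully, here or below, this is a description, since the share of all tested genes that separate likewise was not computed.

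Decorin was at 1340.7, 1379.7 and 1502.6 CPM in IR_RG7388 and 1483.9, 1731.0 and 1460.6 CPM in IR_HDM201, above every other library of the series. Against IR_DMSO it rose by 0.73 (SE 0.10, adjusted p = 4.4e-06) and 0.88 (SE 0.10, adjusted p = 4.25e-07). On log2(FPKM + 1) without a filter on low values the rise with RG7388 was 0.39 and not called (adjusted p = 0.11), while it was called among genes over 1 FPKM in 3 libraries, and IR_DMSO 1 stood apart in FPKM, at an FPKM of 868.8 against 585.2 and 557.2. Biglycan was at 90.5, 83.7 and 82.3 CPM with RG7388 and 74.6, 76.1 and 74.1 CPM with HDM201. Its rises of 0.66 (SE 0.12, adjusted p = 0.000323) and 0.47 (SE 0.12, adjusted p = 0.00762) left it at 19.2% and 16.8% of the Prolif_DMSO mean. Biglycan thus cleared the IR_DMSO libraries but stayed far under all proliferating ones. Lumican was at 77.1, 77.8 and 73.3 CPM with RG7388 and 115.3, 100.7 and 85.2 CPM with HDM201. The IR_RG7388 libraries lay just under those of IR_DMSO and the IR_HDM201 libraries overlapped them. Neither change was called, at -0.20 (SE 0.12, adjusted p = 0.257) and 0.20 (SE 0.12, adjusted p = 0.263).

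SPARC rose with RG7388, to 3808.3, 3778.4 and 3849.4 CPM. With HDM201 it was at 3488.1, 3521.1 and 3365.2 CPM. The changes were 0.79 (SE 0.10, adjusted p = 3.25e-06) and 0.65 (SE 0.10, adjusted p = 4.97e-05), and SPARC reached 87.2% and 79.1% of the Prolif_DMSO mean. THBS1 was at 2154.6, 2147.4 and 2024.2 CPM with RG7388 and 1888.4, 1647.9 and 1829.1 CPM with HDM201. Its changes were 0.75 (SE 0.10, adjusted p = 2.78e-06) and 0.52 (SE 0.10, adjusted p = 0.000357), and it reached 81.2% and 68.9% of the Prolif_DMSO mean. For SPARC and THBS1 every inhibitor-treated irradiated library lay between the IR_DMSO and the Prolif_DMSO libraries, without overlap with either.

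Fibronectin was at 9936.2, 10116.5 and 8791.6 CPM with RG7388, all above IR_DMSO, and rose by 0.59 (SE 0.13, adjusted p = 0.00124). With HDM201 it was at 7768.7, 6505.1 and 7200.0 CPM, overlapped IR_DMSO, and was not called at 0.17 (SE 0.13, adjusted p = 0.372). THBS2 was at 24.4, 25.1 and 24.3 CPM with RG7388 and rose by 0.44 (SE 0.12, adjusted p = 0.0106), a call that was lost without IR_DMSO 3 (adjusted p = 0.0546) and with library totals (0.25, adjusted p = 0.0929). With HDM201 THBS2 was at 21.1, 15.6 and 20.7 CPM and not called at 0.08 (SE 0.12, adjusted p = 0.696). A call with RG7388 and none with HDM201 does not show that the compounds differ on FN1 or THBS2, since that difference was not tested. On log2(FPKM + 1) without a filter the calls of FN1 (0.68, adjusted p = 0.0738) and THBS2 (0.27, adjusted p = 0.143) with RG7388 were lost. So were those of BGN (0.35, adjusted p = 0.0762), SPARC (0.35, adjusted p = 0.0668) and THBS1 (0.26, adjusted p = 0.0511) with HDM201. Among genes over 1 FPKM in 3 libraries that of THBS2 alone was lost (adjusted p = 0.0822). FN1 had an FPKM in only 2 libraries each of IR_DMSO and IR_RG7388, and its 0.68 there was not smaller than the 0.59 from counts.

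Tenascin-C and periostin went the other way and fell below their IR_DMSO levels. Tenascin-C was at 336.1, 343.2 and 308.4 CPM with RG7388 and 296.4, 251.5 and 271.4 CPM with HDM201. The changes were -0.99 (SE 0.12, adjusted p = 1.01e-06) and -1.26 (SE 0.12, adjusted p = 3.81e-08), which left 8.83% and 7.33% of the Prolif_DMSO mean. Periostin was at 78.4, 76.9 and 74.7 CPM with RG7388 and 97.8, 95.7 and 88.3 CPM with HDM201. It changed by -0.94 (SE 0.16, adjusted p = 0.000141) and -0.64 (SE 0.16, adjusted p = 0.0051). No inhibitor-treated irradiated library overlapped an IR_DMSO library for either gene, which describes the same libraries that gave the calls. Both sets of calls held with any 1 library left out.

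**Figure D2:**
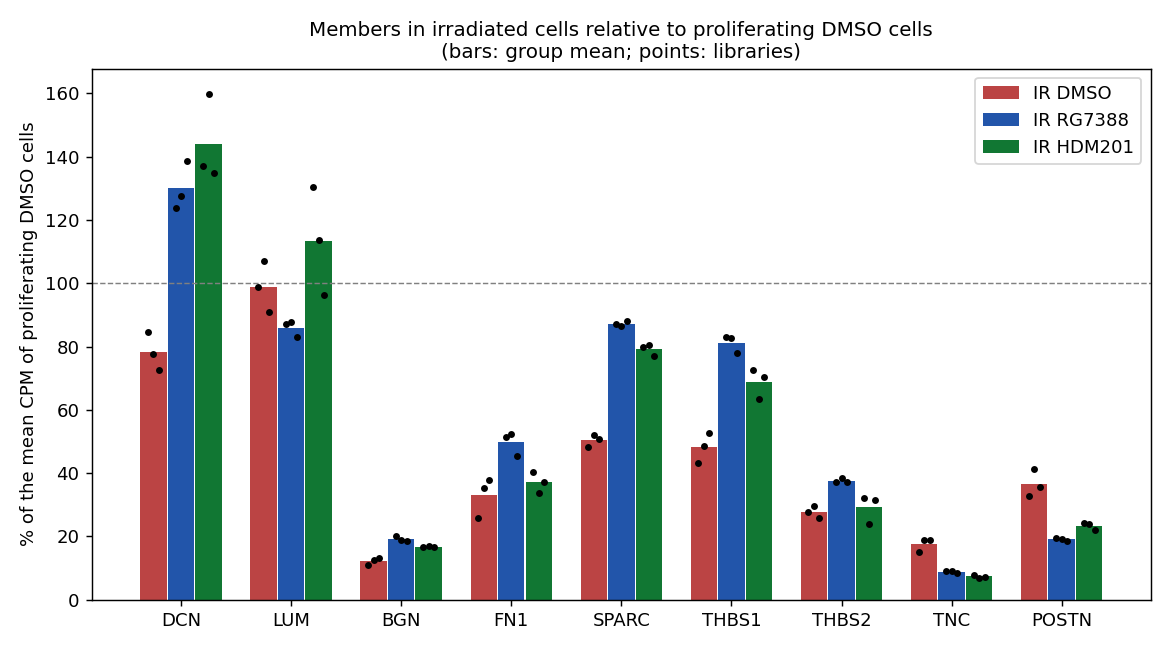
Mean CPM of 9 members in the 3 irradiated groups as a percent of the Prolif_DMSO mean (bars) with the 3 libraries of each group (points) and a dashed line at 100%. SPARC rises from 50.3% in IR_DMSO to 87.2% in IR_RG7388, while TNC drops from 17.5% to 8.83%.

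In proliferating cells the inhibitors changed few genes, and tenascin-C was the member called. With RG7388 TNC was the 1 of 9 called, and it was lower, beside 0.342% of all tested genes lower and 1.2% higher. With HDM201 TNC was again the 1 of 9 called and lower, beside 0.154% lower and 0.545% higher. TNC was at 2624.4, 2800.8 and 2613.2 CPM in Prolif_RG7388 and 2654.4, 2505.1 and 1923.8 CPM in Prolif_HDM201, all under the Prolif_DMSO libraries. The changes were -0.48 (SE 0.12, adjusted p = 0.0372) and -0.66 (SE 0.12, adjusted p = 0.00467). The first call was lost with any 1 library left out (adjusted p of 0.116 to 0.168), and the second held in each such fit.

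Periostin was at 299.2, 240.7 and 287.1 CPM in Prolif_RG7388, under all Prolif_DMSO libraries, but its change of -0.54 (SE 0.15) was not called (adjusted p = 0.0856). SPARC was at 5411.0, 5848.7 and 5184.4 CPM in Prolif_RG7388, above all Prolif_DMSO libraries, and its change of 0.33 (SE 0.10) was not called either (adjusted p = 0.117). Both were called with the DESeq2 Wald test (POSTN adjusted p = 0.0293, SPARC 0.036), with the groups of the comparison only (0.0255 and 0.0234) and with IR_DMSO 1 and Prolif_HDM201 3 left out (0.000469 and 0.00182), POSTN also without a filter on low counts (0.0132) and SPARC with library totals (0.0471). In Prolif_HDM201 periostin was at 241.9, 253.1 and 410.7 CPM, with only the library Prolif_HDM201 3 among the DMSO values. Its change of -0.41 (SE 0.15) was not called (adjusted p = 0.318), and without that library it was -0.69 (adjusted p = 0.00111). The same library set SPARC, at 5702.3, 5564.0 and 4321.9 CPM in Prolif_HDM201: the change was 0.25 (SE 0.10, adjusted p = 0.358), and without it 0.37 (adjusted p = 0.00787). With IR_DMSO 1 left out as well, adjusted p was 0.000176 for POSTN and 0.00137 for SPARC. Prolif_HDM201 3 was also lowest of its group for BGN (273.3 against 430.6 and 401.7 CPM), FN1 (14359.2 against 17955.4 and 17937.9 CPM), THBS2 and TNC, and highest for LUM. DCN, LUM, BGN, FN1, THBS1 and THBS2 were not called with either inhibitor, with changes from -0.28 to 0.13.

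Whether the inhibitor effect depended on the state was tested as the difference between both effects, irradiated minus proliferating. Length of treatment and day of collection are not given for proliferating cells, so state cannot be told apart from either here. For RG7388 DCN, BGN, SPARC and THBS1 were higher, 4 of 9 tested and the 4 called, beside 2.2% of all tested genes higher and 5.27% lower. For HDM201 DCN, BGN and THBS1 were higher and TNC lower, 3 and 1 of 9, beside 2.97% higher and 5.67% lower. THBS1 gave 0.70 (SE 0.13) with RG7388 (adjusted p = 0.00122) and 0.70 (SE 0.13) with HDM201 (adjusted p = 0.00129). Biglycan gave 0.75 (SE 0.17, adjusted p = 0.00591) and 0.74 (SE 0.17, adjusted p = 0.00628). Decorin gave 0.60 (SE 0.13, adjusted p = 0.00539) and 0.80 (SE 0.13, adjusted p = 0.000316). The effect on these 3 genes was thus more positive in irradiated than in proliferating cells with each compound. In proliferating cells biglycan was at -0.09 with RG7388 and -0.28 with HDM201, and THBS1 at 0.06 and -0.18, none of them called. On log2(FPKM + 1) the decorin difference was not called (0.29, adjusted p = 0.679, and 0.50, adjusted p = 0.267), nor was that of biglycan with RG7388 (0.60, adjusted p = 0.0625). Among genes over 1 FPKM in 3 libraries the biglycan call returned, but decorin was still not called with either compound (adjusted p = 0.433 and 0.129).

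SPARC gave 0.47 (SE 0.14, adjusted p = 0.0474) with RG7388, a call lost with any 1 library left out (adjusted p of 0.0583 to 0.159), and 0.40 (SE 0.14, adjusted p = 0.085) with HDM201. TNC fell further in irradiated cells with HDM201, by -0.60 (SE 0.16, adjusted p = 0.0215), which held in 4 of 12 fits with 1 library left out. With RG7388 its -0.51 (SE 0.16) was not called (adjusted p = 0.0581), but it was called in 9 of 25 alternatives, among them library totals (-0.65, adjusted p = 0.00248), the DESeq2 Wald test (-0.50, adjusted p = 0.0289), all 3 fits to FPKM (adjusted p of 0.0132 to 0.0353) and the fits without IR_DMSO 1 (-0.61, adjusted p = 0.0199) or without it and Prolif_HDM201 3 (-0.61, adjusted p = 0.000178). POSTN was not called, at -0.39 (SE 0.22, adjusted p = 0.355) and -0.23 (SE 0.22, adjusted p = 0.606), but with IR_DMSO 1 and Prolif_HDM201 3 both left out it was called with RG7388, at -0.46 (adjusted p = 0.0245). LUM, FN1 and THBS2 were not called either.

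The genes around the members were described from lists, whose counts are read beside the percentages of all genes given above. Collagens that decorin, biglycan, SPARC or periostin bind fell in 10 of 10 cases after irradiation in DMSO, with a median of -1.34. COL6A3 changed by -2.28 (SE 0.11), COL5A1 by -2.19 (SE 0.12) and COL6A2 by -1.36 (SE 0.11). In irradiated cells RG7388 raised 2 and lowered 2 of the 10, among them COL5A1 at 0.64 (SE 0.12, adjusted p = 0.000265) and COL14A1 at -0.64 (SE 0.14, adjusted p = 0.00217). HDM201 lowered 3, which were the 3 called, COL14A1 at -0.70 (SE 0.14), COL3A1 at -0.55 (SE 0.14) and COL5A2 at -0.34 (SE 0.11).

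Of 8 tested small leucine-rich proteoglycans outside the members, 1 was called after irradiation in DMSO, and it rose. This was fibromodulin (FMOD), a collagen-binding relative of lumican, at 1.04 (SE 0.17, adjusted p = 1.93e-05). Podocan (PODN) and tsukushi (TSKU) were not called there, but each inhibitor raised PODN in irradiated cells (0.84 and 0.61, SE 0.12 for both) and lowered TSKU (-0.72 and -0.71, SE 0.16 for both), which makes 1 of 8 in each direction for either compound. Of 14 other matricellular genes 7 rose and 4 fell after irradiation, a median of 0.64 where that of the members was -1.46. That median includes genes of low level: COMP, TNXB and SPP1 went from 0.543, 0.37 and 0.21 CPM in Prolif_DMSO to 2.03, 2.08 and 1.06 CPM in IR_DMSO. Of the abundant genes, TGFBI, FSTL1 and CCN1 went from 8198.6, 2370.4 and 575.3 CPM to 3075.0, 1398.3 and 397.2 CPM. CCN2 was at 663.3 and 628.7 CPM. CCN4 rose by 1.22 (SE 0.10) and CCN3 by 1.55 (SE 0.18), while TGFBI fell by 1.41 (SE 0.11) and SPOCK1 fell by 1.78 (SE 0.16). With RG7388 in irradiated cells 3 rose and 5 fell, and with HDM201 2 rose and 7 fell. CCN4 was at -1.20 and -1.16 (SE 0.10 for both), CCN3 at -1.31 (SE 0.17) and -1.35 (SE 0.18), and SMOC1, a calcium-binding relative of SPARC, at -2.05 and -2.10 (SE 0.14 for both), after a change of 0.97 (SE 0.13) with irradiation.

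Enzymes that build the chondroitin and dermatan sulfate chains of decorin and biglycan split after irradiation, with 9 of 21 higher and 7 lower. CSGALNACT1, which starts the chain repeat, rose by 3.40 (SE 0.14, adjusted p = 2.03e-15), and XYLT1, which adds the first xylose to the core protein, fell by 2.71 (SE 0.14, adjusted p = 1.56e-13). Both moved in the opposite direction with inhibitor in irradiated cells, CSGALNACT1 by -1.62 and -1.56 (SE 0.12 for both) and XYLT1 by 0.98 and 0.74 (SE 0.13 for both) with RG7388 and HDM201. With RG7388 9 of these 21 rose and 2 fell, and with HDM201 7 rose and 1 fell. DSEL, a dermatan sulfate epimerase, was among those that rose, at 0.94 and 0.97 (SE 0.15 for both). Of 15 large and cell surface proteoglycans 2 rose and 9 fell after irradiation, among them CSPG4 at -2.37 (SE 0.12), SDC2 at -0.92 (SE 0.09) and SDC1 at -1.14 (SE 0.12). RG7388 raised 5 and lowered 4 of them in irradiated cells, and HDM201 raised 2 and lowered 3. SDC2 rose by 0.47 and 0.60 (SE 0.09 for both).

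Of 16 tested receptors of the members 3 rose and 6 fell after irradiation. ITGA5, the alpha chain of the fibronectin receptor, was at -1.54 (SE 0.11), the collagen receptor chain ITGA11 at -1.46 (SE 0.12) and ITGB3 at -1.48 (SE 0.15). With RG7388 5 rose and 1 fell, and with HDM201 3 rose and 1 fell, with ITGA3 at 1.17 and 0.84 (SE 0.11 for both) and ITGB8 at -1.32 and -1.08 (SE 0.29 for both). Of 10 proteases and their cofactors that process matrix proteins, 3 rose and 7 fell after irradiation. ADAMTS5, which cleaves proteoglycans, rose by 3.32 (SE 0.18), ADAMTS1 by 1.66 (SE 0.10), and the procollagen cofactor PCOLCE fell by 3.31 (SE 0.15). With inhibitor in irradiated cells ADAMTS5 was at -1.01 and -0.87 (SE 0.16 for both), and 2 rose and 3 fell with RG7388 and 2 rose and 4 fell with HDM201. Of 7 TGF-beta ligands and latent binding proteins 2 rose and 3 fell after irradiation, LTBP2 at -1.74 (SE 0.11), TGFB1 at -1.38 (SE 0.11) and LTBP4 at -1.54 (SE 0.14) falling and TGFB2 at 1.49 (SE 0.16) rising. RG7388 then raised 2 and lowered 1, and HDM201 raised 1 and lowered 3, with TGFB2 at -0.89 and -0.85 (SE 0.16 for both).

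**Figure D3:**
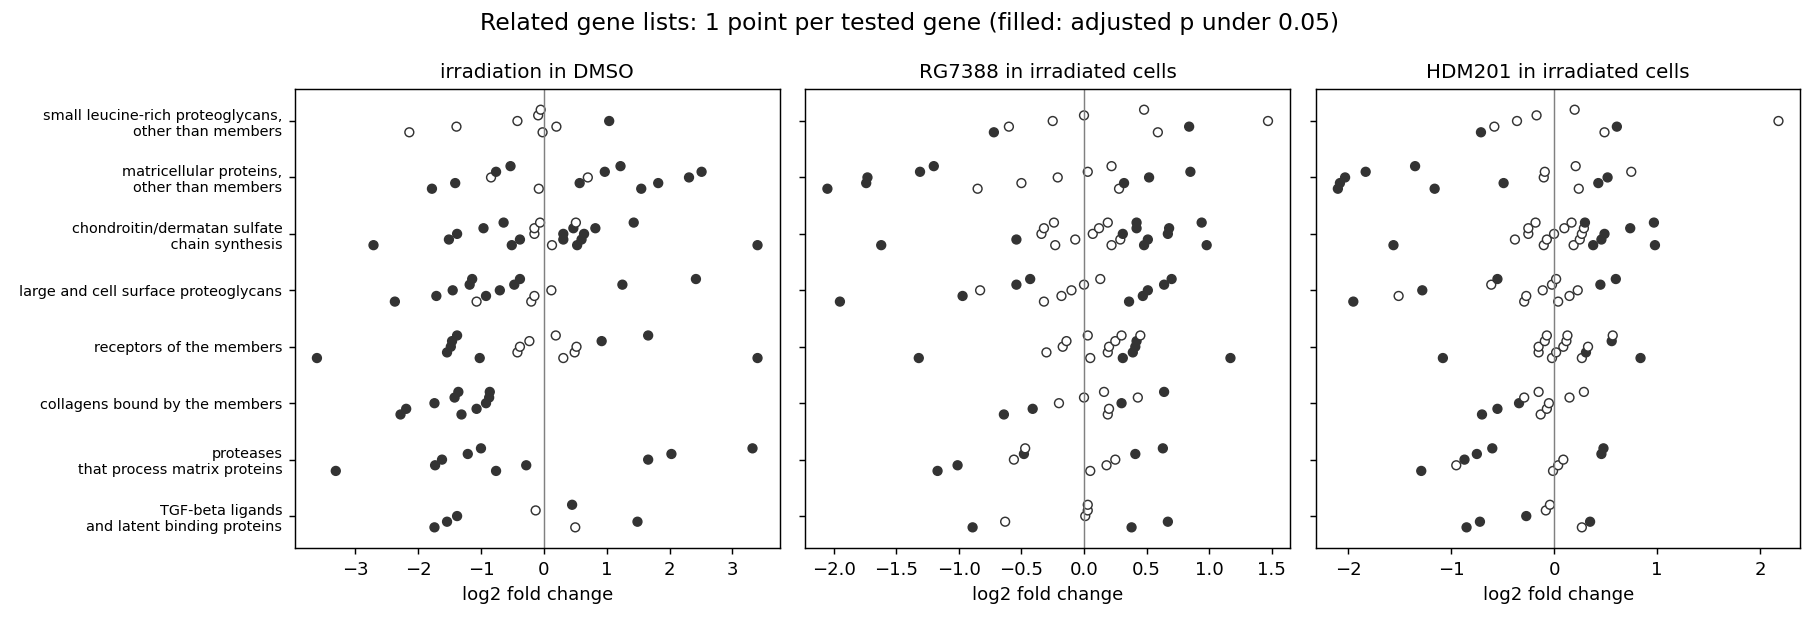
Log2 fold changes of the tested genes of 8 related lists, 1 point per gene, for irradiation in DMSO and for RG7388 and HDM201 in irradiated cells, with filled points for an adjusted p under 0.05. All 10 collagens lie left of 0 after irradiation, and the matricellular genes outside the members lie on both sides.

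Across the 18 libraries, log2 CPM of the members followed several patterns, which mostly reflect the 6 groups the libraries share, and the correlations are given as descriptions. BGN and THBS2 had r = 0.99, FN1 and THBS2 0.98, TNC and POSTN 0.95 and SPARC and THBS1 0.92. SPARC and POSTN had 0.48, DCN and TNC -0.44, and the chromosome 12 neighbors DCN and LUM 0.04. Among all tested genes the 2 most alike to BGN were KPNB1 and AXL (r = 0.997 for both) and to FN1 FRMD4A and LTBP2 (0.99 for both). COL6A3 was among the closest to THBS2 (0.993). PXN was among the closest to SPARC (0.989), and THBS1 was closest to PTPRF and SIPA1L3 (0.979 for both). TNC was closest to INHBE and AMPH (0.992 for both) and POSTN to the mitotic kinesins KIF14 and KIF15 (0.992 for both). DCN was closest to GDI2 (0.966) and PRPS1 (0.95), and LUM to NDUFA5 (0.936) and UBE2V2 (0.855).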

How the data were processed

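Poly(A) RNA from IMR90 fibroblasts was sequenced in 18 libraries, 6 groups of 3, and groups and replicate numbers come from the sample labels, which name no sequencing batch. The deposited counts are raw: the authors aligned reads to hg38 with STAR and counted them over genes with HTSeq. The deposited FPKM values were made by the authors with Cufflinks. For differential expression the authors used DESeq2. Tool versions, annotation release and strand setting: not given in the sources used here. FN1 has a blank FPKM in 4 libraries despite many counts, so a blank was taken as missing where the gene had a count and as 0 elsewhere.

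Counts were fitted in R 4.3.3 with edgeR 4.0.16, using filterByExpr by group (18151 genes kept), TMM scaling and a robust quasi-likelihood model of 6 group means over all 18 libraries (12 residual degrees of freedom). Adjusted p is the Benjamini-Hochberg value over all tested genes, and SE is the absolute log2 difference over the square root of F. Pseudoautosomal copies (45) were left out. Gene coordinates and merged exon lengths are those of GENCODE 44 on hg38, in which 99.46% of gene IDs were found, and promoter windows come from RefSeq (GRCh38.p14). Library totals of at least 21609198 counts make counting error small for all members except OGN. The tests were tried on simulated counts.

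Members and gene lists were chosen with earlier results of these data known. Genes named besides the members are up to 3 per list with the smallest p in each of irradiation in DMSO and both inhibitors in irradiated cells, the neighbors in both proteoglycan clusters, and for each member the 2 genes with the highest Pearson correlation of log2 CPM (prior count 2). Some genes that this rule names are not reported here. Alternatives were DESeq2 1.42.0 size factors, library totals, scaling without the members, no filter or a filter of 1 CPM in 3 libraries, the DESeq2 Wald test, a replicate block, the groups of a comparison only, limma 3.58.1 on FPKM in log2 after adding 1 or 0.1 (after adding 1 also with a filter of 1 FPKM in 3 libraries), an adjusted p under 0.01, and leaving out libraries. Of 45 pairs of libraries with the same replicate number 9 had residual correlations over 0.1. For 8 of 18 libraries the best correlate in another group had their own number. No chance level was computed for either count. Replicates were treated as unpaired, with the replicate block as the alternative. The closest replicates of a group differed by 3.79 in chi-square per degree of freedom, more than sampling noise, and all were counted as separate samples. No fold changes of the authors were used.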

Additional observations from a re-analysis of the deposited data

Results flagged for a closer look

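For 5 members the response to an inhibitor differed between irradiated and proliferating cells, by a test of the difference itself (edgeR, adjusted over 18151 genes). State cannot be told apart from length of treatment or day of collection, which are not given for proliferating cells. With RG7388 the difference in log2 fold change, irradiated minus proliferating, was 0.60 for DCN, 0.75 for BGN, 0.47 for SPARC and 0.70 for THBS1. With HDM201 it was 0.80 for DCN, 0.74 for BGN, 0.70 for THBS1 and -0.60 for TNC. All 3 irradiated libraries of either compound lay above the 3 IR_DMSO libraries for DCN, BGN and THBS1, but the share of all tested genes that separate likewise was not computed. Both compounds share the DMSO libraries, so their values are not independent of each other. The difference for SPARC was no longer called with any 1 library left out, and that for TNC was called in 4 of 12 such fits. That for DCN was not called with either compound in any fit to FPKM, and that for BGN with RG7388 not in those without a filter.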

How the results depend on the processing

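Over 1647 combinations of a member, a comparison and an alternative, 1536 kept the side of the threshold, 81 lost the call, 27 gained one and 3 with a call reversed direction. Changes of sign between uncalled values were not counted as reversals, as for LUM after irradiation in DMSO, which ranged from -0.10 to 0.30. The 3 reversals were DCN after irradiation in DMSO, at 0.03 in each limma fit to FPKM. The number of members called with RG7388 in proliferating cells moved from 1 to 2 with library totals or no filter, to 3 with the DESeq2 Wald test, the groups of the comparison only or both outlying libraries (IR_DMSO 1 and Prolif_HDM201 3) left out, and to 0 with limma on FPKM (pseudocount 1 or 0.1), at an adjusted p under 0.01 and without any 1 library (range 0 to 0). With HDM201 in proliferating cells it moved from 1 to 0 with the groups of the comparison only and to 3 without both outlying libraries, and ranged from 1 to 3 with 1 library left out, the 3 being reached without Prolif_HDM201 3. With limma on log2(FPKM + 1) the counts moved from 8 to 5 for RG7388 and from 6 to 3 for HDM201 in irradiated cells, and from 4 to 2 for the difference between states with either compound. A pseudocount of 0.1 gave 5, 3 and, for RG7388 by state, 2. These fits had no filter on low values, and the same fit to genes over 1 FPKM in 3 libraries gave 7, 6, 3 and 3. The replicate block gave the counts reported in all 9 comparisons (8, 8, 8, 8, 6, 1, 1, 4 and 4). Scaling by library totals moved the median of all genes by 0.289 after irradiation in DMSO and by -0.187 and -0.146 for RG7388 and HDM201 in irradiated cells, and the share of called genes that were higher from 51% to 71.5%, 48% to 20.2% and 46.8% to 22.5%. For irradiation in RG7388 and in HDM201 that share moved from 48.3% to 61.8% and 48.9% to 60.2%, and for the difference between states from 29.4% to 15.1% and 34.4% to 15.7%. Without Prolif_HDM201 3 it moved from 78% to 51.9% for HDM201 in proliferating cells. Depth limits only OGN, which could not be tested.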
